A study of Mus musculus with 108 samples.

Results

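The comparison is between optic nerve heads (ONH) of mouse eyes with severe glaucoma and those of eyes without glaucoma or in its early stage, all DBA/2J. Its members were taken from the sample titles, which put 10 arrays in the severe group, 10 in the first no or early set and 11 in the second, that is 31 of the 108 arrays of the series. All of these eyes came from DBA/2J females aged 10.5 months by the labels, and the severe group held 9 mice, the first set 10 and the second 10. Both sets were weighted equally as the reference, and they are called no or early eyes together. Beside them stood 9 ONH arrays of moderate eyes of the same strain and age, 10 of preglaucoma DBA/2J eyes at 4.5 months, and 10 of D2-Gpnmb+ eyes at 10.5 months, a strain that carries a working Gpnmb allele and served as the control without glaucoma. The rule that put an eye in a stage, and the basis of the division into sets 1 and 2, are not given in the sources used here. Each ONH sample was a capillary punch around the nerve, which the protocol describes as enriched in glial lamina with some central retina, choroid and sclera. Labelled cDNA was hybridised to Affymetrix Mouse Genome 430 2.0 arrays, and values are log2 signals.

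DBA/2J mice carry mutant alleles of Tyrp1 and Gpnmb, develop a pigment-dispersing iris disease and with age a raised eye pressure and loss of retinal ganglion cells. The optic nerve head is where all ganglion cell axons leave the eye, unmyelinated, between astrocytes that make up the glial lamina of the mouse. Ganglion cell bodies lie in the retina, so an ONH sample reads their axonal surroundings, the glia, vessels and matrix of the nerve head, and the ring of central retina cut with it. In such bulk tissue, fewer cells of a type and less RNA per cell cannot be told apart.

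The arrays matched their strain and tissue labels in most respects. Gpnmb, which encodes the melanosomal glycoprotein that separates the strains, averaged 6.93 in severe, 6.92 in no or early and 9.23 in D2-Gpnmb+ eyes. Gfap, the astrocyte intermediate filament, lay between 10.65 and 11.42 on all severe and no or early arrays. Markers of skeletal muscle and of red blood cells were too dim to test. Severe replicate 6 held little retina or pigment epithelium: its mean over 23 photoreceptor genes was 4.05, where the other severe arrays reached 7.30 or more, and its Rpe65 signal was 6.70. Severe replicate 3 had the next lowest mean over amacrine and horizontal cell genes (5.71, against 5.16 on replicate 6 and at least 7.36 on the others). Severe replicates 4 and 5, which the sample descriptions give as both eyes of the same mouse, read 5.35 and 6.64 for Xist, the noncoding RNA of the inactive X chromosome, although the labels say female; all other severe arrays read at least 11.07. Counts are therefore also given without these arrays where the arrays decide them.

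Changes were called where limma gave an adjusted p under 0.05, over 12100 genes. In severe eyes 405 genes rose, 3.35% of those tested, and 1196 fell, 9.88%. The falls were also the deeper changes: 238 genes fell and 18 rose at least 2-fold. On 79 genes (0.653%) every severe array was below every no or early array, and on 13 (0.107%) every severe array was above. The median difference over all genes was 0.0 on the log2 scale. When the arrays were divided into 4 ranges of the mouse numbers in the labels, 1126 of the 1196 falls and 364 of the 405 rises had the same sign within each range. The same arrays gave the calls, so this is no independent check. Each range held 2 or 3 severe arrays, and the share over all genes was not taken. Of the falls, 215 ended at a severe mean under 5, near the floor of the arrays, so that their differences are compressed.

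Most genes of the axon skeleton fell. Neurofilaments fill the calibre of long axons, kinesins carry cargo along them, and ankyrin, spectrin and sodium channels build the initial segment and nodes. Of 22 tested genes of axon filaments, motors and nodes, 17 fell and none rose, with a median difference of -1.05, against 9.88% falling and a median of 0.0 over all genes. In 9 of the 22 every severe array lay below every no or early array, against 0.653% of all genes. Nefl, the neurofilament light chain, had the largest fall of any gene tested: it read 4.70, 6.25 and 8.07 (lowest, median and highest array) in severe eyes and 9.40, 10.51 and 10.80 in no or early eyes. No severe array overlapped the reference, and the highest, replicate 9, stood apart from the rest. The difference was -4.40 ± 0.211 (SE), a 21.1-fold lower signal (adjusted p = 6.51e-25).

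The medium chain Nefm read 2.31, 3.16 and 3.80 in severe eyes and 6.26, 6.81 and 7.38 in no or early eyes, a difference of -3.79 ± 0.153 (adjusted p = 3.96e-28). The heavy chain Nefh read 2.93, 6.15 and 7.70 against 9.13, 9.87 and 10.81, a difference of -4.07 ± 0.251 (adjusted p = 5.31e-20). All 3 chains were thus separated without overlap, and severe Nefm lay near the array floor. Sptbn4, the spectrin of nodes and initial segments, fell by 4.02 from a no or early mean of 7.87 to 3.84. Kif5a, a neuronal kinesin motor of axonal transport, fell by 2.87 and read 8.74 to 11.08 in severe eyes and 11.92 to 12.76 in no or early eyes. Scn1a, a voltage-gated sodium channel, fell by 2.16, and by 1.38 without severe replicates 3 and 6. Of the members that did not pass, Map1b, a microtubule-associated protein, differed by -0.05 (adjusted p = 0.889), Kcna1, a potassium channel beside the nodes, by -0.03 (adjusted p = 0.928) and Nfasc, an adhesion molecule of nodes, by -0.19 (adjusted p = 0.489).

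**Figure D1:**
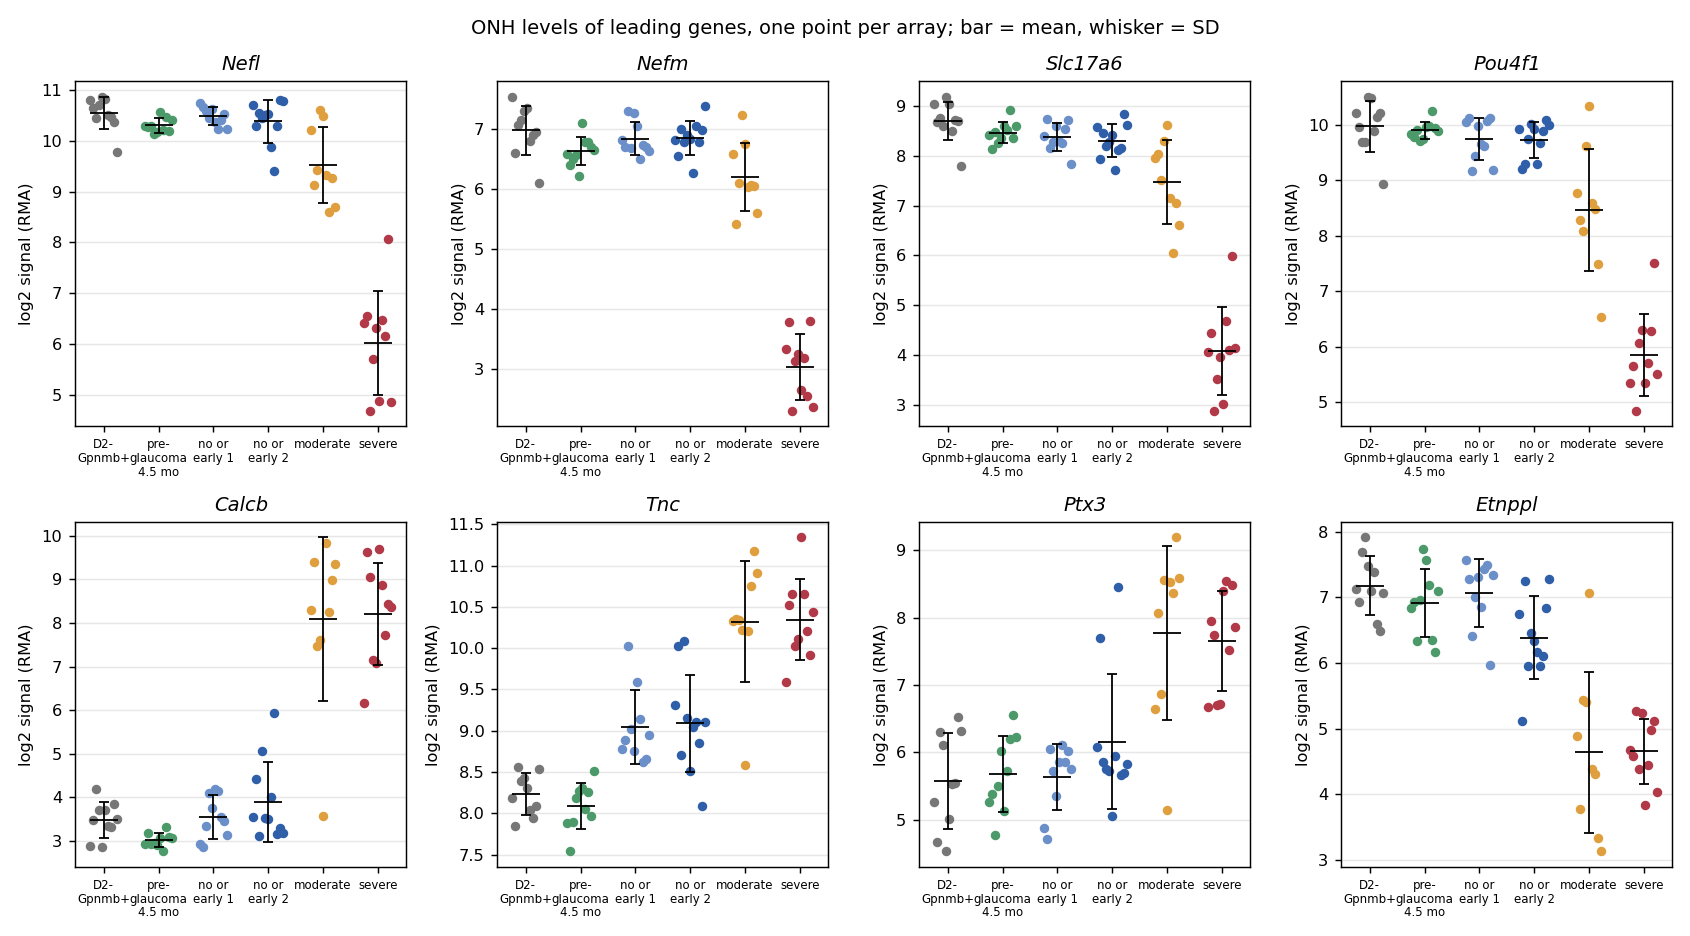
Log2 signal of 8 genes on every ONH array of the 6 groups, with points for arrays, a line for the group mean and bars for the SD. Nefl, Pou4f1 and Slc17a6 are low on all severe arrays and spread between the severe and the reference level in moderate ones (Pou4f1 from 6.53 to 10.34), whereas Calcb is high in both severe and moderate eyes, with medians of 8.40 and 8.29 against 3.53 in no or early eyes.

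Ganglion cell genes fell with the axon genes. Of 19 tested, 16 fell and none rose, with a median of -1.14, where 9.88% of all genes fell. Slc17a6, the vesicular glutamate transporter that ganglion cells use at their synapses, read 2.88, 4.07 and 5.99 in severe eyes and 7.72, 8.31 and 8.85 in no or early eyes. It fell by 4.27 ± 0.207 on the log2 scale (adjusted p = 8.6e-25), to a severe mean of 4.08 near the array floor, so no fold is given. Pou4f1, the POU-domain transcription factor that marks most ganglion cells, read 4.85, 5.68 and 7.52 against 9.18, 9.90 and 10.13, a difference of -3.89 ± 0.225 (adjusted p = 2.97e-21). In both genes the groups were fully separated, and replicate 9 was again the highest severe array. Kcnd2, an A-type potassium channel, fell by 2.39 and Chrna6, a nicotinic acetylcholine receptor subunit, differed by -2.29. Tubb3, neuronal beta-tubulin, fell by 1.82 and Gap43, a growth cone protein, by 1.70. The 3 members that did not pass were Rbpms (-0.17, adjusted p = 0.588), an RNA-binding protein of ganglion cells that vessel walls also express, Ebf1 (-0.11, adjusted p = 0.424), a transcription factor, and Tppp3 (0.03, adjusted p = 0.938), a tubulin-binding protein. Without severe replicate 6 the count stayed at 16, and without replicates 3 and 6 it was 15. The mean over the 19 genes ran from 6.47 to 7.10 on severe arrays and from 7.81 to 8.51 on no or early arrays, again without overlap.

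Promoters are shown for the leading ganglion cell genes, which fell in both ONH and retina, and for Tnc and Ptx3, which rose in the ONH, because these pairs moved in opposite directions. The sequences run from 250 bases before to 50 after the start site and are from RefSeq on GRCm38.p6. Slc17a6 and Tnc had 2 promoter entries each, and the first entry with a match to a searched motif is shown. A match in their windows was therefore favoured by the choice of entry. Capitals mark a match to a searched motif, and all are written along the gene's strand. Pou4f1 lies on the minus strand at chr14:104467950-104468249, Slc17a6 on the plus strand at chr7:51624387-51624686, Tnc on the minus strand at chr4:64046966-64047265 and Ptx3 on the plus strand at chr3:66219637-66219936.
Pou4f1: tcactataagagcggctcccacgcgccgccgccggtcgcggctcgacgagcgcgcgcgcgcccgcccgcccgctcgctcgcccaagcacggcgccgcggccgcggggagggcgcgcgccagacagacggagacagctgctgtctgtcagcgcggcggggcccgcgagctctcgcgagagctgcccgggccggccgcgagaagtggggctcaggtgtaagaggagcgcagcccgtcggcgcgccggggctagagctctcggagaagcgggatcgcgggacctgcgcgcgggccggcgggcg
Slc17a6: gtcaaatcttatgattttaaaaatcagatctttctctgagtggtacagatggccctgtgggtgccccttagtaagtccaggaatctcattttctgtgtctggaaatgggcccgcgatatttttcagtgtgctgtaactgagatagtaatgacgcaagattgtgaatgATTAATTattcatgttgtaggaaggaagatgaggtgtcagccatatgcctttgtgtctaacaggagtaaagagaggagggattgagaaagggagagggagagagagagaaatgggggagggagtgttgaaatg
Tnc: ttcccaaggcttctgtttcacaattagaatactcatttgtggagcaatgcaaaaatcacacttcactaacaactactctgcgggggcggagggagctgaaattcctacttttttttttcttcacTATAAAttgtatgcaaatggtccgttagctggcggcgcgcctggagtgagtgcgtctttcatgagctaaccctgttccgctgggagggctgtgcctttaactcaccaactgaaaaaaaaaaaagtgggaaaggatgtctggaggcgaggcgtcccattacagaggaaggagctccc
Ptx3: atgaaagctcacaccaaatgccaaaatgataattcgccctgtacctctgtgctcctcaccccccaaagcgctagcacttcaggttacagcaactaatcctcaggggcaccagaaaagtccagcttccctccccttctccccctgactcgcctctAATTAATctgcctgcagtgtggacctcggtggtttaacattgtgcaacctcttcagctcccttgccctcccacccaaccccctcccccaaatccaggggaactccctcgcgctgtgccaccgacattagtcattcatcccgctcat

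The Pou4f1 promoter is a CpG-rich stretch with 78.3% G and C and 57 CG dinucleotides, while that of Slc17a6 has 43.0% and 3. Motifs were searched on both strands. They were TGANTCA for AP-1 and TGACGTCA for CRE. The STAT motif was TTCNNNGAA. The core bound by POU4 factors was AATTAAT. The TATA box was searched as TATAAA. No match overlaps another in the windows shown. The Slc17a6 window holds the POU4 core on the opposite strand, ATTAATT as printed, from -83 to -77, and the Ptx3 window holds it from -96 to -90. The Tnc window holds TATAAA from -126 to -121, and the Pou4f1 window holds none of the searched letters. Of the 12100 genes tested, 9729 had a promoter entry, and the POU4 core was present in 1.6% of those, in 2.43% of the 945 genes that fell with an entry and in 2.7% of the 296 that rose. For AP-1 the shares were 6.23%, 5.4% and 7.09%, and for STAT 8.19%, 8.15% and 9.12%. Such matches describe the letters only.

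Synaptic genes fell in part. Ganglion cells, amacrine cells and bipolar cells release transmitter within the central retina, and the vesicle release machinery is common to them. Of 15 tested genes of vesicle release, 11 fell and none rose, with a median of -0.92, where 9.88% of all genes fell. Without severe replicates 3 and 6 this count was 8. Unc13c, a vesicle priming factor, read 5.99, 7.08 and 9.01 in severe eyes and 10.28, 11.30 and 11.61 in no or early eyes, a difference of -4.16 ± 0.181 (adjusted p = 6.74e-27). Rph3a, rabphilin, a vesicle protein outside the list, fell by 3.42 and Cplx1, complexin, a clamp of the fusion machinery, by 3.03. For these 3 genes no severe array overlapped the no or early arrays. Rims1, an active zone scaffold, fell by 1.76, but by 1.01 without severe replicates 3 and 6. Stx1a, the plasma membrane syntaxin, did not pass (0.31, adjusted p = 0.291), nor did Vamp2, the vesicle SNARE (-0.17, adjusted p = 0.249). Among 13 potassium channel genes 11 fell, with a median of -0.87. Kcnip4, an A-type channel partner, fell by 2.13, and Kcnc1, a fast-spiking channel, by 1.49, or by 0.71 without replicates 3 and 6. Of these 13, 9 fell without both replicates. Calb2, calretinin, a calcium-binding protein of amacrine and ganglion cells, fell by 2.75, and Smim17, a small membrane protein, by 2.74.

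The retina of the same eyes, dissected without the nerve head, gave a second reading. The severe difference in the ONH minus that in the retina of the same eye was fitted over 48 eyes. It was higher (adjusted p under 0.05) for 631 genes, 5.21%, and lower for 1041, 8.6%. Of the 1196 genes that fell in the ONH, 566 had a lower difference there than in the retina, and of the 405 that rose, 122 had a higher one. These genes were chosen by ONH differences that also enter this test, so both shares are raised by the choice. Whether both tissues were normalised together is not given in the sources used here, so tissues are compared only through their severe differences.

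Most axon genes had a lower severe difference in the nerve head than in the retina. Of the 22 axon genes, 15 had the lower difference in the ONH and none the higher. Among the 15 was Map1b, which did not fall in the ONH (-0.05) and was higher in the retina (0.58). Without severe replicates 3 and 6 the test gave 902 genes of all tested in place of 1672, and the count for this list was not taken there. Sptbn4 differed by -4.02 in the ONH and by -0.51 in the retina, and the difference between tissues was -3.46 (adjusted p = 2.63e-15). Kif5a differed by -2.87 and -0.68, with -2.17 between tissues (adjusted p = 7.11e-19), and Nefh by -4.07 and -1.50, with -2.55 (adjusted p = 3.48e-10). Nefm did not pass this test (-3.79 and -3.28, adjusted p = 0.0514). Unc13c, of the vesicle release list, fell by 4.16 in the ONH while the retina gave -0.13 (adjusted p = 0.157), a difference between tissues of -4.01 (adjusted p = 3.56e-22).

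Ganglion cell genes divided. In the retina 18 of the 19 fell, with a median of -1.32, where 22.6% of all genes fell and 19.3% rose. Pou4f1 differed by -3.89 in the ONH and -3.67 in the retina, and the tissues did not differ by the test (-0.21, adjusted p = 0.544). A group of genes fell far less in the ONH: Nrn1, neuritin, a neurite outgrowth protein, differed by -1.41 in the ONH and -3.38 in the retina. Sncg, gamma-synuclein, differed by -0.88 and -2.71, and Htr1b, a serotonin receptor, by -1.12 and -2.61. Thy1, a surface glycoprotein of projection neurons, differed by -0.55 and -1.63. All 4 passed the test of the difference, with adjusted p from 8.33e-16 to 3.86e-08. Rbpms differed by -0.17 and -1.57, with 1.38 between tissues (adjusted p = 1.38e-05). In all, 9 of the 19 had the higher difference in the ONH and 4 the lower. Rgs4, a regulator of G protein signalling outside the list, also had the higher difference in the ONH, with -0.13 in the ONH and -2.22 in the retina (difference 2.06, adjusted p = 2.84e-15).

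**Figure D2:**
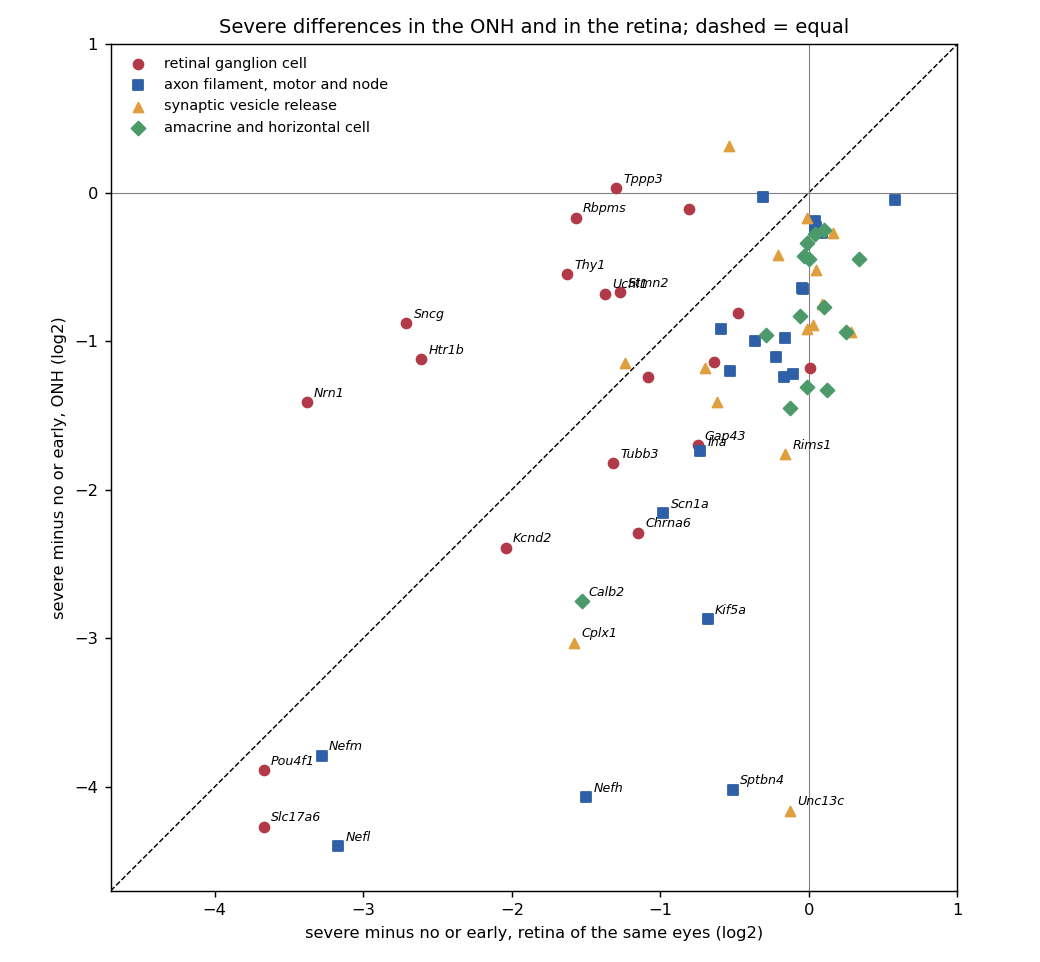
Severe minus no or early difference (log2) in the retina on the horizontal axis and in the ONH on the vertical axis, with a point for each tested gene of the ganglion cell, axon, synaptic and amacrine lists; the dashed line marks equal differences. Axon genes such as Sptbn4 (-0.51 and -4.02) lie below the line, and the ganglion cell genes Nrn1 (-3.38 and -1.41) and Sncg (-2.71 and -0.88) lie above it.

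Genes of other retinal neurons were lower in severe ONH samples, but much of this came from a pair of arrays. Of 14 amacrine and horizontal cell genes 10 fell, with a median of -0.80, where 9.88% of all genes fell. Without severe replicate 6 this was 8, and without replicates 3 and 6 it was 2, Calb2 (-2.31) and Calb1 (-0.64, adjusted p = 0.0291), both calcium-binding proteins. Gad1, which makes the transmitter GABA, read 3.57 on replicate 6 and 5.46 on replicate 3, and 7.89 to 9.38 on the other severe arrays, against 8.77 to 9.71 in no or early eyes. Its difference was -1.33 with all arrays and -0.45 (adjusted p = 0.0772) without both. Of 9 bipolar cell genes 5 fell with all arrays and 0 without replicate 6, led by Gng13, a G protein gamma subunit, at -1.22 and -0.73 (adjusted p = 0.0746). In the retina of the same eyes none of the 9 bipolar genes passed in either direction.

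None of 23 photoreceptor genes passed (median -0.41, and 0.14 without replicate 6). With replicates 3 and 6 left out, 2 of the 23 rose. Gngt1, a rod transducin subunit, shows the pattern: 3.91 on replicate 6, and 11.84 and 12.12 at the severe median and highest, against 11.05 to 12.15 in no or early eyes. Severe replicate 1, with the highest photoreceptor mean of the severe arrays (9.77), had a ganglion cell mean of 6.88 and an axon mean of 7.83. It is 1 array, so nothing is drawn from it. When the mean of amacrine and bipolar genes was added to the fit as a covariate, 15 of the 19 ganglion cell genes, 15 of the 22 axon genes and 7 of the 15 vesicle release genes fell. In that fit 12 of the 23 photoreceptor genes rose (median 0.70), where 848 of all 12100 genes did. Of the axon and the vesicle release genes 1 each rose there. The amacrine and bipolar genes make up that covariate, so their own calls in this fit are no comparison. The part of retina content of the punch in these and the other falls was not tested.

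**Figure D3:**
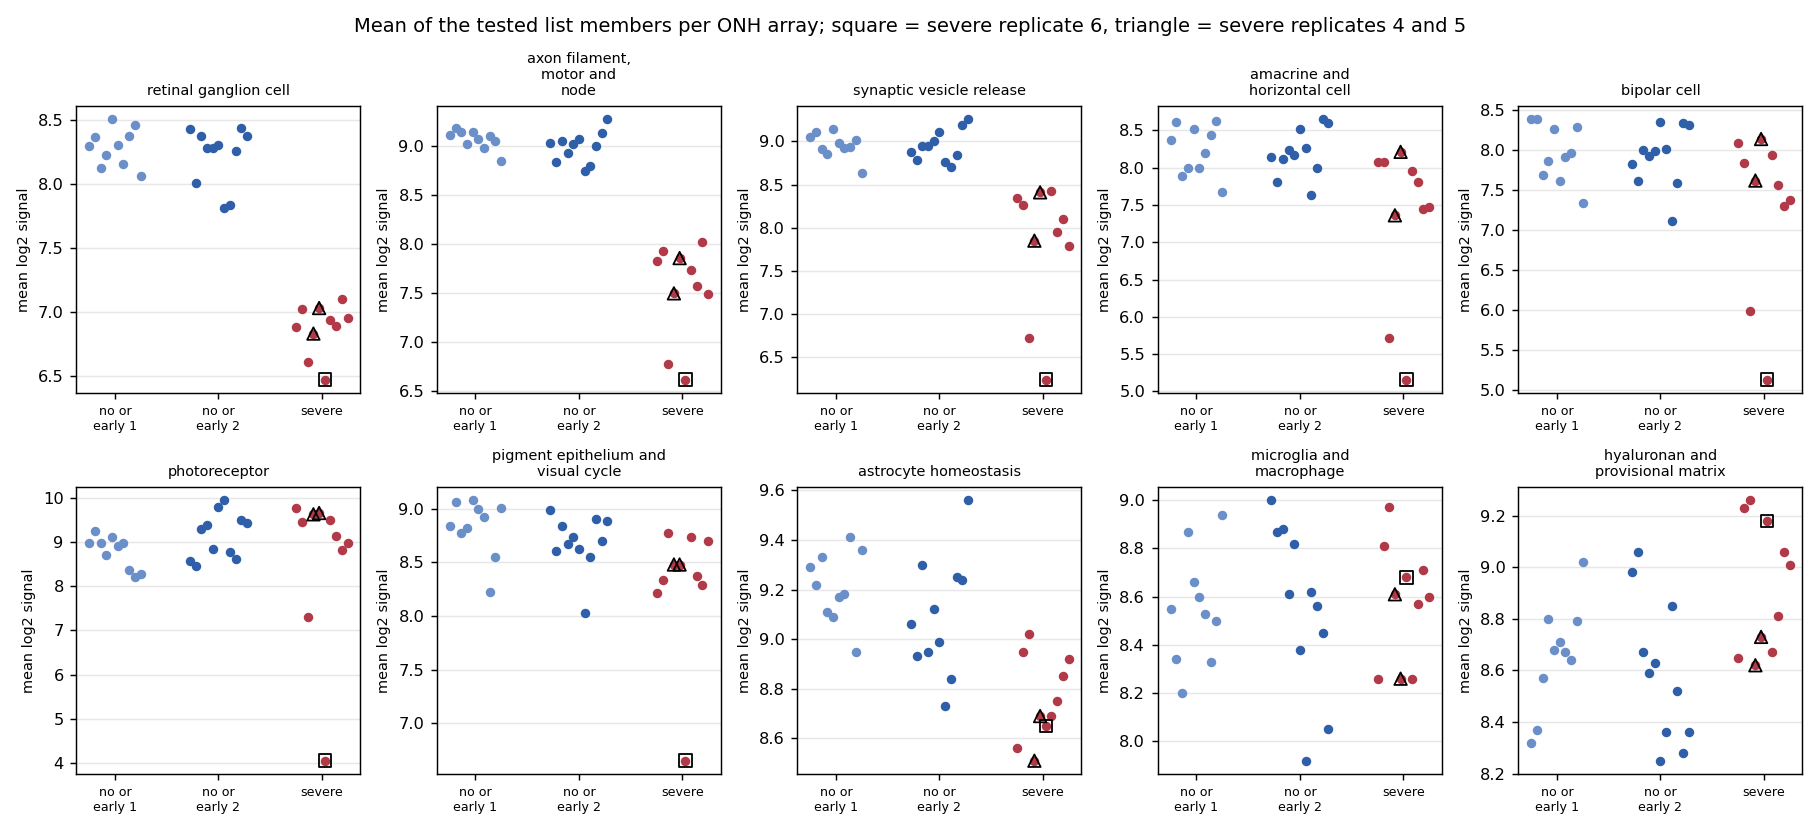
Mean log2 signal over the tested genes of 10 lists, with a point for each severe array and each array of both no or early sets; the square is severe replicate 6 and the triangles are replicates 4 and 5. All severe arrays lie below all no or early arrays for ganglion cell (6.47 to 7.10 against 7.81 to 8.51), axon and vesicle release genes, and replicate 6 lies far below the rest for photoreceptor genes (4.05).

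The largest rise was that of Calcb, which encodes the beta form of calcitonin gene-related peptide, a vasodilator neuropeptide. It read 6.16, 8.40 and 9.69 in severe eyes and 2.85, 3.53 and 5.94 in no or early eyes, and the groups did not overlap. The log2 difference was 4.51 ± 0.374 (adjusted p = 1.16e-14); the no or early mean of 3.72 is near the array floor, so no fold is given. The difference lay between 3.77 and 4.84 in each of the 4 ranges of mouse numbers. The retina of the same eyes gave -0.19, and the tissues differed by 4.68 (adjusted p = 6.63e-15). Calcb was the only one of 6 tested genes of its peptide system to change. Calca, its close relative, is not analysed here, and whether its RNA adds to the Calcb signal was not tested.

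Edn2, endothelin 2, a vasoconstrictor peptide, rose by 1.80 ± 0.432 (adjusted p = 0.0019). It read 3.65, 7.31 and 8.20 in severe eyes and 3.15, 4.62 and 7.58 in no or early eyes, so the groups overlapped widely. The no or early median of 4.62 is near the array floor. The low severe values were those of replicates 3 and 6 (4.58 and 3.65), the arrays with the least amacrine signal, and without them the difference was 2.46. It did not pass when the range of mouse numbers entered the fit (1.67, adjusted p = 0.0657), nor against the 7 no or early arrays whose labels have the same fields as the severe ones (0.55, adjusted p = 0.662). Of 6 endothelin genes Edn2 alone rose and Ednrb, the receptor of astrocytes and vessels, fell by 0.19, but not without the mouse of replicates 4 and 5 (-0.11, adjusted p = 0.209).

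Genes of the provisional matrix, which tissue lays down after damage, rose in part: 5 of 14 rose and 2 fell, against 3.35% and 9.88% of all genes. Tnc, tenascin C, read 9.59, 10.32 and 11.34 in severe eyes and 8.09, 9.02 and 10.09 in no or early eyes, a rise of 1.28 ± 0.186 (adjusted p = 3.42e-07). Has2, the synthase of long hyaluronan, rose by 1.65 ± 0.355 (adjusted p = 0.000474), from a no or early mean under 5, near the array floor. Ptx3, a pentraxin that binds hyaluronan matrix and counted here with the acute phase genes, read 6.67, 7.80 and 8.55 against 4.71, 5.82 and 8.46 and rose by 1.78 ± 0.316 (adjusted p = 2.16e-05). Vcan, versican, rose by 0.95, Postn, periostin, by 0.57 and Fn1, fibronectin, by 0.48. Groups overlapped for all of these. The members that fell were the brain lecticans Ncan (-0.50) and Bcan (-0.38). Tnc and Has2 did not rise in the retina (-0.15 and -0.17), and both differed between tissues by test (1.44, adjusted p = 1.6e-06, and 1.77, adjusted p = 0.000258). Without severe replicates 3 and 6, Fn1 no longer passed (0.38, adjusted p = 0.0711) and 4 of the list rose. With the mean of amacrine and bipolar genes as a covariate only Tnc of the list rose, and Has2 gave 0.93 (adjusted p = 0.0558).

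Among structural matrix genes, Fbln2, fibulin 2, rose by 1.30 ± 0.212 and Prelp, a leucine-rich proteoglycan of connective tissue, by 0.81 ± 0.134. Of 19 collagens, Col5a2 (0.64), Col12a1 (0.45) and Col8a1 (0.32) rose, and Col9a1, of cartilage-type fibrils, fell by 0.59. Timp4, an inhibitor of metalloproteinases, fell by 1.15 and Mmp9, a gelatinase, by 0.76. Of the 20 genes of that list 2 fell, near the 9.88% of all genes, and none rose, where 3.35% of all genes did. Wnt9a, a Wnt ligand, rose by 1.27 ± 0.176, and all severe arrays (lowest 8.55) lay above the no or early median of 8.28; averaged over its probe sets the rise was 0.54. Ereg and Btc, ligands of the EGF receptor, rose by 1.26 and 0.72, and Egf fell by 0.45. Btc did not pass without severe replicate 1 (0.60, adjusted p = 0.112) or any of several other arrays, was lowest on replicate 6 (4.24) and gave 1.27 without replicates 3 and 6, where Ereg gave 0.98 (adjusted p = 0.0667); Egf did not pass without replicate 8 (-0.40, adjusted p = 0.0617). Fgf2, a growth factor of glia and retina, rose by 0.69 and Ret, the receptor of glial-derived factors, fell by 1.01.

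Some of the largest rises occurred at low signal and were shared with young eyes. Smr2 (1.64), Krt13 (1.82), a keratin, and Pla2g6 (1.94), a phospholipase, had no or early means from 2.63 to 3.20, and for all 3 each severe and each preglaucoma array was above each of the 40 other ONH arrays. Preglaucoma eyes were higher still: severe minus preglaucoma was -0.88, -0.47 and -0.71. Over all 18194 genes, 21 had this pattern, none of them with a mean above 4.12 in any other group, and 0 had the reverse. Matn3 (1.72) and Defb1 (1.31) were also no higher than in preglaucoma eyes (-0.49 and -0.02). A difference in handling of these arrays and a difference between the groups cannot be told apart for such genes. Of the 18 genes that rose at least 2-fold, 12 had a no or early mean under 5.

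The glial genes that changed were mostly homeostatic genes that fell. Astrocytes and Müller cells clear glutamate, buffer potassium and carry water and bicarbonate. Of 19 astrocyte homeostasis genes 7 fell and none rose (median -0.25), where 9.88% of all genes fell and 3.35% rose. Etnppl, an enzyme that breaks down phosphoethanolamine in astrocytes, read 3.83, 4.62 and 5.27 in severe eyes and 5.12, 6.84 and 7.56 in no or early eyes, a difference of -2.07 ± 0.256 (adjusted p = 6.53e-09). Of the no or early arrays 1, at 5.12, lay within the severe range. Cldn10, a claudin, fell by 0.98, Aldoc, the brain aldolase, by 0.90 and Slc4a4, a bicarbonate transporter, by 0.56. Kcnj10, the inward rectifier that takes up potassium, fell by 0.61, and by 0.43 (adjusted p = 0.0576) without replicate 6, whose value was 4.84. Aqp4, the water channel, did not pass (-0.55, adjusted p = 0.0836). In the retina of the same eyes Etnppl was higher by 0.53 (adjusted p = 0.000362), and the tissues differed by -2.56 (adjusted p = 1.19e-12). Of 9 Müller glia genes 4 fell: Spc25 (-1.28), a kinetochore gene with high signal in Müller cells, Rlbp1 (-0.75), the retinaldehyde carrier, Car14 (-0.60), a carbonic anhydrase, and Hes1 (-0.37), a Notch target, which did not pass without replicate 6 (-0.38, adjusted p = 0.0571) or several other arrays. Orm2, an acute phase glycoprotein, fell by 1.86 ± 0.263 (adjusted p = 1.98e-07).

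Of 20 reactive glia genes tested 2 rose and none fell, against 3.35% and 9.88% of all genes. Cd44, the hyaluronan receptor, and Osmr, the oncostatin receptor, rose by 0.33 and 0.36, and neither passed without severe replicate 6 (0.30, adjusted p = 0.0645, and 0.32, adjusted p = 0.11) or any of several other arrays. Gfap differed by 0.04 (adjusted p = 0.827), Vim, vimentin, by 0.05 (adjusted p = 0.447), Serpina3n, a protease inhibitor of reactive astrocytes, by 0.15 (adjusted p = 0.711) and Lcn2, lipocalin 2, by 0.48 (adjusted p = 0.607). Lcn2 spread from 5.29 to 10.42 within the no or early eyes, wider than the severe range of 7.50 to 9.28. Against preglaucoma eyes 10 of the 20 were higher in severe eyes, where 9.21% of all genes were. Stat3, the transcription factor downstream of the LIF family, rose by 0.52 (adjusted p = 0.00351; 0.25 averaged over its probe sets), and Lif itself differed by 0.35 (adjusted p = 0.453). Of 12 axon injury genes, Gadd45a, a stress response gene, rose by 0.46 and Chac1, which degrades glutathione, by 0.39, though the latter not without replicate 6 (0.34, adjusted p = 0.123) or several other arrays. Atf3, an injury transcription factor, gave 0.12 (adjusted p = 0.809) and Sox11, a regeneration factor, -0.16 (adjusted p = 0.687). Bcl2l11, the pro-apoptotic protein BIM, rose by 0.43 (adjusted p = 0.00238).

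Immune genes gave few calls, where 3.35% of all genes rose and 9.88% fell. None of 18 microglia and macrophage genes passed (median -0.02); the smallest p belonged to Cx3cr1, the fractalkine receptor (0.32, adjusted p = 0.217). None of 10 leukocyte genes and none of 13 antigen presentation genes passed. Of 16 complement genes only Cd59a, an inhibitor of the membrane attack complex, rose, by 0.26, and C1qa, a chain of the initiating complex, differed by 0.30 (adjusted p = 0.303). C3 and C4b are not analysed here. Interferon-responsive genes had a median of 0.42, which was 0.30 without severe replicate 6 and 0.20 without replicates 3 and 6. Within the 4 ranges of mouse numbers the list's mean differed by 0.97 in 1 range (3 severe arrays) and by 0.13, 0.09 and 0.19 in the others. Of 16 genes only Ifit1 (0.83, adjusted p = 0.0314) and Irf9 (0.48, adjusted p = 0.00494) passed, and Ifit1 did not without replicate 6 (0.73, adjusted p = 0.0855). Against preglaucoma eyes, which were 4.5 months old, 12 of the 16 were higher (median 0.89), where 9.21% of all genes were. The list's mean was 7.04 in preglaucoma eyes, 7.38 and 7.51 in no or early sets 1 and 2, 7.93 in moderate and 7.85 in severe eyes. Against moderate eyes the median difference of the 16 genes was -0.08, and none passed. Cx3cl1, the ligand of Cx3cr1 made by neurons, fell by 0.25, but not without the mouse of replicates 4 and 5 (-0.21, adjusted p = 0.106).

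Other tissue in the punch gave smaller differences. Of 10 pigment epithelium genes 5 fell and of 13 melanocyte genes 5 fell, with medians of -0.54 and -0.45, where 9.88% of all genes fell. Severe replicate 6 was lowest in all 10 of the genes that fell, and without it 4 and 2 fell. Lrat, an enzyme of the visual cycle, fell by 1.01 with and 0.64 without it. Rpe65, the isomerase of that cycle, did not pass (-0.69, adjusted p = 0.0696). Mbp, myelin basic protein, ran from 7.81 to 12.13 in no or early eyes and from 8.31 to 10.39 in severe eyes, with a difference of -0.35 (adjusted p = 0.709). Of 10 myelin genes 1 fell, near the 9.88% of all genes. Of 14 endothelial genes 1 fell, also near that share. This was Kdr, the VEGF receptor, which fell by 0.30 (-0.15, adjusted p = 0.335, without replicates 3 and 6). Kdr rose by 0.76 in the retina, and the tissues differed (-1.06, adjusted p = 1.69e-09). None of 11 pericyte and smooth muscle genes passed.

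Of 13 hypoxia and glycolysis genes 5 fell and none rose, where 9.88% of all genes fell and 3.35% rose. Bnip3, a mitophagy receptor induced by low oxygen, fell by 0.54 ± 0.0926, Vegfa, the vascular growth factor, by 0.35, Ankrd37, an ankyrin-repeat protein induced by low oxygen, by 0.66 (-0.28, adjusted p = 0.173, without replicates 3 and 6), Pgk1, of glycolysis, by 0.19 and Car9, a carbonic anhydrase induced by low oxygen, by 0.91. Car9 was low in preglaucoma eyes also (mean 3.76, against 3.80 in severe and 4.73 in no or early eyes). Of 21 respiratory chain genes 2 fell, near the 9.88% of all genes, Cox4i1 by 0.30 and Cox7a2 by 0.09, both subunits of cytochrome oxidase, the latter not without replicate 6 (-0.07, adjusted p = 0.133). None of 12 immediate early genes passed.

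**Figure D4:**
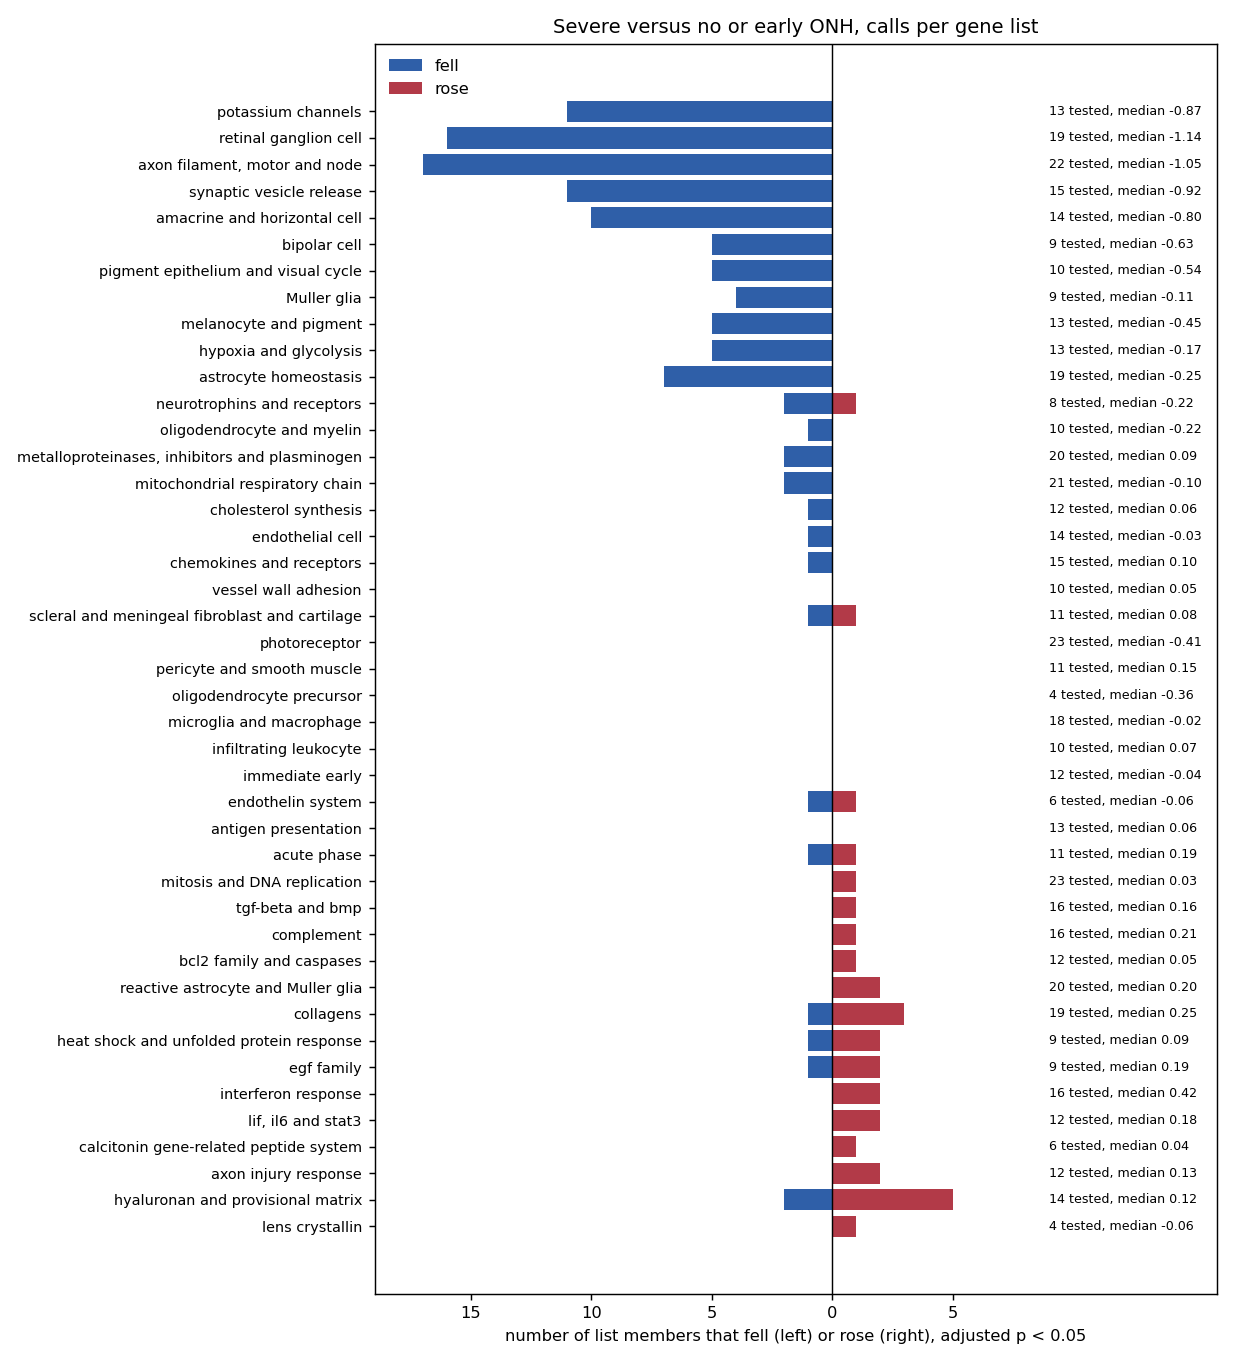
Number of tested genes of each list that rose (right) and fell (left) in severe against no or early ONH at an adjusted p under 0.05, with the tested number beside each list. Falls predominate in ganglion cell (16 of 19), axon (17 of 22), vesicle release (11 of 15) and potassium channel genes (11 of 13), and provisional matrix has the most rises (5 of 14). Over all genes 9.88% fell and 3.35% rose.

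Moderate eyes separated these changes by stage. Against moderate eyes 154 genes were higher in severe eyes, 1.27%, and 298 lower, 2.46%, of which 11 and 79 by at least 2-fold. Of the 1196 genes that fell against no or early eyes, 196 were also lower than in moderate eyes, and of the 405 that rose 70 were also higher and 0 lower. The severe arrays enter both comparisons, so the shared calls are not independent. By the mouse numbers, severe replicate 1 and moderate replicate 2 are eyes of the same mouse, as are severe replicate 3 and moderate replicate 3.

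Axon and ganglion cell genes were lower in severe than in moderate eyes. Nefl read 8.60, 9.33 and 10.60 in moderate eyes, above all severe arrays, and severe minus moderate was -3.51 (adjusted p = 6.83e-17). Slc17a6 was lower by 3.41 and Nefm by 3.16 than in moderate eyes. In all, 8 of the 22 axon genes, 9 of the 19 ganglion cell genes and 7 of the 15 vesicle release genes were lower than in moderate eyes, against 2.46% of all genes. Pou4f1 spread widely among moderate eyes, from 6.53 to 10.34, and severe minus moderate was -2.63 (adjusted p = 5.22e-11).

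Other genes had similar means in moderate and severe eyes, which does not show that they are equal. Calcb averaged 8.09 in moderate and 8.21 in severe eyes (difference 0.13, adjusted p = 0.921); moderate replicate 5, at 3.58, was the exception. Tnc averaged 10.32 and 10.34, Has2 6.92 and 6.53 and Etnppl 4.64 and 4.65, with no difference passing. Wnt9a (0.69, adjusted p = 0.0437), Postn (0.57, adjusted p = 0.0357) and Prelp (0.52, adjusted p = 0.0484) were higher in severe than in moderate eyes. Cldn10 was higher in severe than in moderate eyes by 0.95 (adjusted p = 0.0303), although it was below no or early eyes.

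Genes of mitosis and DNA replication were higher in moderate than in severe eyes. Of 23 tested, 14 were lower in severe than in moderate eyes (median -0.86), where 2.46% of all genes were. Against no or early eyes 1 rose (Cdca8, 0.82), near the 3.35% of all genes, and the median was 0.03. Mki67, the proliferation antigen, read 4.77, 5.34 and 6.26 in severe, 4.70, 6.93 and 7.68 in moderate and 4.75, 5.59 and 6.44 in no or early eyes. Severe minus moderate was -1.20 (adjusted p = 0.0013) and severe minus no or early -0.16 (adjusted p = 0.693). Severe minus moderate was -2.30 for Pbk, a mitotic kinase, -2.04 for Tpx2, a spindle factor, and -1.73 for Top2a, topoisomerase II. Sox11 and Lif followed the same order, with severe minus moderate of -1.55 (adjusted p = 7.58e-06) and -1.46 (adjusted p = 0.00254).

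**Figure D5:**
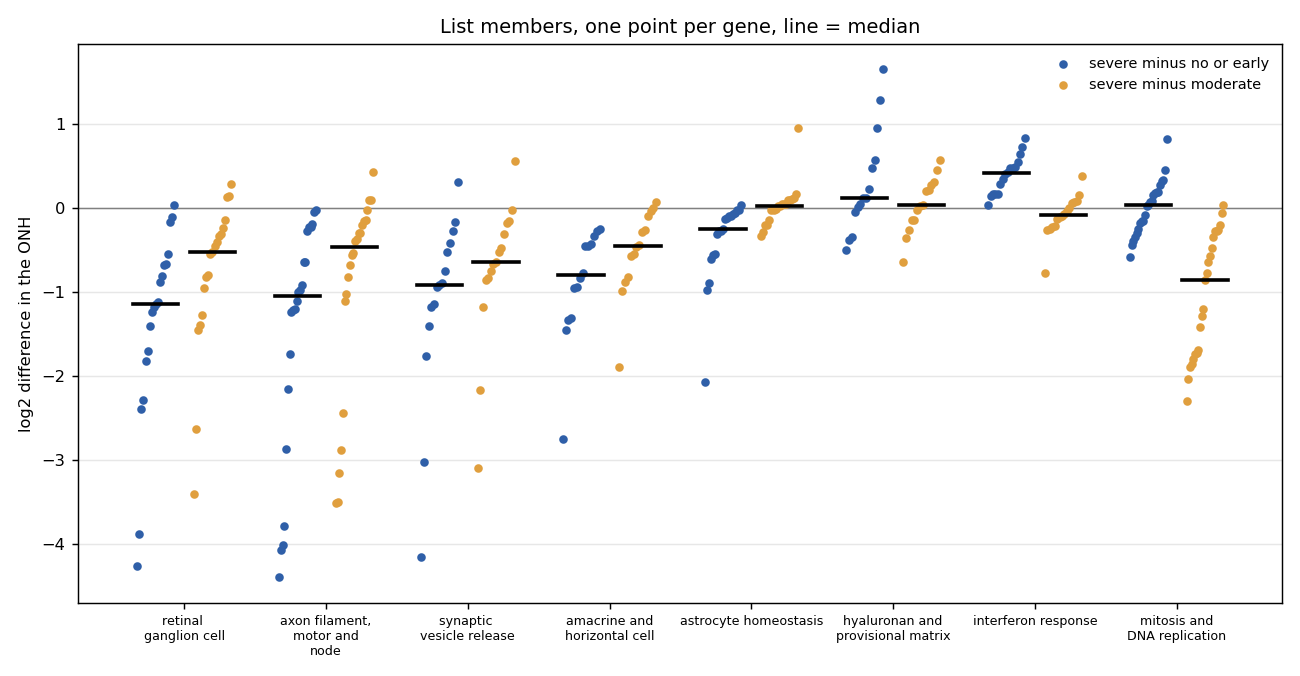
Difference of severe eyes from no or early eyes and from moderate eyes (log2) for each tested gene of 8 lists, with the list median as a line. Mitosis genes centre near 0 against no or early eyes (median 0.03) and lie lower against moderate eyes (median -0.86), whereas ganglion cell genes are lower in both comparisons (medians -1.14 and -0.53).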

How the data were processed

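Expression was measured on Affymetrix Mouse Genome 430 2.0 arrays. Per the labels and the submitters' processing notes, the authors read the arrays with GCOS and deposited log2 RMA values from the affy package, without versions. These ran from 1.81 to 14.31 over 45101 probe sets, and the ONH array medians from 4.88 to 5.23; the number of arrays limits the precision. No probe detection calls were used here. Probe sets of exactly 1 gene (34958) were kept, and 932 with several genes and 9211 with none were left out, which covered 18194 genes by symbols updated through Entrez numbers for 34754 probe sets. Where a gene had several probe sets, that of the highest mean signal on the 60 ONH arrays stood for it, and genes reaching 5 on at least 8 arrays were tested.

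All 60 ONH arrays were fitted with limma 3.58.1 in R 4.3.3, with group means and the mouse, taken from the number in the sample description, as a random block (correlation 0.0774). Severe eyes were set against the equal-weight mean of both no or early sets, and p-values were adjusted by Benjamini-Hochberg over 12100 genes; all tests were two-sided. The difference between tissues used the ONH minus retina value of the same probe set in 48 eyes (correlation 0.0939). Eyes of the same mouse are not independent, and where the labels do not name separate mice p-values measure only the spread between these samples. The fit was also run on simulated independent normal values, without correlation between eyes of a mouse and without outlying arrays. That run therefore cannot check the mouse block or the effect of such arrays.

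The comparison, the 45 gene lists (708 members, 660 on the array) and the genes named in any case were chosen with earlier results of these data known. Named were the 12 largest rises and falls, up to 6 changed members of each list, or 2 with the smallest p where none changed, the 6 largest differences each way from moderate eyes and between tissues, and a fixed set of glaucoma, glia and cell type genes. Other genes named beside a list's count, such as members that did not pass, were chosen after their values were seen. Alternatives covered array weights, filters, probe sets, the mouse and replicate block, the reference, retina content as a covariate, another quantile normalization and leaving out arrays. Those without severe replicates 3 and 6 or 4, 5 and 6, with preglaucoma eyes as reference, and with a mean of at least 6, were added after seeing the data.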

Additional observations from a re-analysis of the deposited data

Results flagged for a closer look

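Of 312 groups of values examined, 26 held an array far from the others, where chance flags about 1 in 20 groups, and 11 of the 26 were severe replicate 6. On that array Kcnj10 was lowest at 4.84, Aqp4 at 7.2, Ermn, a myelin-associated gene, at 3.07 and Gngt1 at 3.91. Pigment epithelium genes were lowest there too, with Lrat at 5.11, Rdh5 at 4.87, Rgr at 7.49, Ttr at 9.74 and Rpe65 at 6.7, as were the melanin enzymes Tyrp1 at 4.6 and Tyr at 4.35. Severe replicate 9 was the highest severe array for Unc13c (9.01), Sptbn4 (5.57) and Kif5a (11.08). Severe replicate 7 was lowest for Cd44 (9.76) and Nrn1 (8.99), replicate 1 for Cdca8 (4.66) and H2-DMa (5.2), and replicate 4 for Kcnip1 (4.23). In no or early set 1, Col9a1 was lowest on replicate 6 (8.1), Btc on replicate 8 (4.36), Tapbp on replicate 7 (11.52) and Hspa5 on replicate 9 (10.77). Ltbp3 (10.48) and Ngfr (7.59) were highest on replicate 3 of that set and Tyrp1 (8.4) on replicate 1.

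The severe difference in the ONH departed from that in the retina of the same eyes, by a test of the difference itself, in these genes among others. The ONH difference minus the retina difference, on the log2 scale, was 4.68 for Calcb, -4.01 for Unc13c, -3.46 for Sptbn4, -2.62 for Rph3a, -2.56 for Etnppl and -2.55 for Nefh. Gpr158, an orphan receptor of neurons, gave -2.51, with -1.80 in the ONH and 0.72 in the retina. In the other direction Rgs4 gave 2.06, Nrn1 1.96, Smim31 1.95, Ctxn3, cortexin 3, 1.92 and Sncg 1.82. Adjusted p in limma ran from 3.56e-22 (Unc13c) to 0.00101 (Smim31).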

How the results depend on the processing

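The counts of 405 rises and 1196 falls held within 1.5 times under most alternatives, but a similar count need not hold the same genes. Of the main calls, 379 rises and 1121 falls were kept with array weights. With the mean of amacrine and bipolar genes as a covariate 173 and 663 were kept. With set 2 alone as reference 226 and 844 were kept, without severe replicates 3 and 6 234 and 856, and with the same label fields 85 and 403. Leaving out each severe or no or early array in turn gave 313 to 497 rises, 1056 to 1269 falls and 1382 to 1766 changed genes, with 292 to 395 of the rises and 985 to 1176 of the falls among them; severe minus moderate gave 355 to 538 genes. Changed genes numbered 3108 with no filter on low values and 500 against the 7 no or early arrays with the same label fields, which leaves fewer samples. Rises numbered 776 with array weights, 1347 with no filter, 243 with set 2 alone, 94 with the same label fields, 848 with the mean of amacrine and bipolar genes as an inner retina covariate, 650 with quantile normalization again and 1115 against preglaucoma eyes; falls numbered 406 with the same label fields. Quantile normalization again split the calls into 650 rises and 978 falls. Severe minus moderate gave 452 genes, and 884 with array weights, 1325 with no filter, 181 with only the groups compared, 271 without severe replicates 4, 5 and 6, and 299 with a mean of at least 6. The difference between tissues, 1672 genes, fell to 794 without severe replicates 4, 5 and 6 and to 902 without 3 and 6. The causes were not tested. With the replicate block there were 496 rises and 1288 falls, including all main calls. Replicate numbers were not used to pair arrays in the main fit, since severe and no or early arrays of the same number carry different mouse numbers. Arrays of the same number deviated together with a correlation above 0.1 for 7 of 10 numbers in set 1 and 5 of 10 in set 2. Arrays of unlike number were not compared in this way, so these correlations do not decide whether the numbers pair the arrays.

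Signs turned as follows (log2). With array weights Gpnmb gave -0.15 and Sox11 0.14. With all probe sets averaged Gpnmb gave -0.12, Gfap -0.03 and Sox11 0.06. With photoreceptor and pigment epithelium covariates Gpnmb gave -0.05 and Rpe65 0.07. With the inner retina covariate 72 falls turned sign; among named genes Fcrls gave -0.06, Lhfpl3 0.26, Gnat2 0.46, Gngt1 0.47, Gng13 0.13, Lhx4 0.22, Cabp5 0.04, Nyx 0.02, Gad2 0.01, Tfap2b 0.07, Notch3 -0.03, Fosl2 -0.02, Gpnmb -0.25, Lif -0.19, Gfap -0.12, Vim -0.0, Serpina3n -0.22, Timp1 -0.05, C1qa -0.16, Aqp4 0.03, Atf3 -0.17 and Sox11 0.39. Against preglaucoma eyes Defb1 gave -0.02, Smr2 -0.88, Matn3 -0.49, Krt13 -0.47, Pla2g6 -0.71, Hes1 0.09, Cdca8 -0.39, H2-DMa 0.12, Sele 0.25, Car9 0.04 and Hspa1b -0.03. With the same label fields Lcn2 gave -1.14, Gfap -0.1, Serpina3n -0.08, Timp1 -0.21, Rbpms 0.07 and Mbp 0.44. Without severe replicates 3 and 6 Lhfpl3 gave 0.01, Gnat2 0.12, Gngt1 0.28, Gpnmb -0.09, Gfap -0.03 and Sox11 0.26, and without 4, 5 and 6 Gngt1 0.01, Gpnmb -0.14, Sox11 0.16 and Xist 0.01. Leaving out 1 array took Atf3 from -0.02 to 0.21, Gfap from -0.0 to 0.09, Gngt1 from -0.83 to 0.1, Gpnmb from -0.1 to 0.08 and Sox11 from -0.28 to 0.05.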

Other observations

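Moderate replicate 5 read 3.58 for Calcb, 10.49 for Nefl, 10.34 for Pou4f1 and 7.06 for Etnppl, all within the range of the no or early eyes or above it, while its Edn2 signal was 7.67. Among no or early eyes, replicate 8 of set 2 read 5.94 for Calcb and 8.46 for Ptx3, both the highest of that group, and it had the lowest Nefl signal of the reference at 9.40. Tyrp1 averaged 10.4 in preglaucoma eyes at 4.5 months and 10.76 in D2-Gpnmb+ eyes at 10.5 months, against 7.27 in no or early and 6.61 in severe eyes. Of 13 melanocyte genes, 11 were lower in severe than in preglaucoma eyes (adjusted p under 0.05 in limma), where 10.0% of all genes were.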
